A study of Mus musculus with 12 samples.

Results

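Osteocytes are the cells buried in mineralized bone, and they touch each other and the bone surface through long processes that run in fluid-filled canals. A set of 7 genes was followed in the tibia shaft, of which 6 encode membrane proteins (receptors, channels and a glycoprotein) and 1 encodes a matrix protein: *Pdpn*, *Ptprz1*, *Ackr3*, *Gja1*, *Piezo1*, *Kcnk2* and *Fbln7*. The members were chosen by name, as the 7 of the 47069 genes in the count matrix whose symbol is one of these, and each symbol matched 1 gene. All 7 passed the filter on low counts in every comparison.

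RNA came from the flushed tibia shafts of 12 male mice aged 8 weeks, with 1 library per mouse and 4 mice in each of 3 groups. Jrt;Sost-het mice carried the Jrt allele of *Col1a1* on 1 chromosome (*Col1a1*Jrt/+) and, per the methods of the study, 1 intact copy of *Sost* (*Sost*+/-). Jrt;Sost-ko mice were *Col1a1*Jrt/+ and had no intact *Sost* (*Sost*-/-). WT mice were wild type for both genes and came from a separate parallel colony of the same mixed FVB and C57BL6 background, so that colony and genotype cannot be told apart in comparisons with WT. The Jrt allele alters splicing of the type I collagen transcript and gives a mouse model of severe osteogenesis imperfecta, and *Sost* encodes sclerostin, an osteocyte product that inhibits bone formation. Both groups with the Jrt allele share that allele and their colony, and by design they differ in the *Sost* genotype. Per the study, the *Sost* knockout came from C57BL6 and the Jrt allele from FVB mice, and both genes lie on chromosome 11. Strain alleles linked to *Sost* may therefore differ along with it, and the design cannot tell these apart. Mice with a *Sost* knockout and intact *Col1a1* were not analysed here. The germline alleles act in every cell, and the shaft holds bone, vessels and whatever marrow, muscle and periosteum remained.

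As background, podoplanin (*Pdpn*) is a mucin-type glycoprotein of the early osteocyte that links the membrane to the cytoskeleton while the processes grow out. Connexin 43, the product of *Gja1*, forms the gap junctions and hemichannels through which osteocytes exchange small molecules with each other and with osteoblasts. *Piezo1* encodes a cation channel opened by membrane stretch, and *Kcnk2* encodes TREK-1, a potassium leak channel that stretch also opens. *Ptprz1* encodes a receptor tyrosine phosphatase that binds pleiotrophin and midkine, and *Ackr3* encodes an atypical receptor that takes up the chemokine CXCL12. *Fbln7* encodes fibulin 7, which is secreted into the matrix and binds cells there, so it is a neighbour of the membrane and not a membrane protein.

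On GRCm38 the members lie on 6 chromosomes, and their positions were taken from GENCODE M21. *Pdpn* (ENSMUSG00000028583) is at chr4:143267431-143299564 on the minus strand, *Ptprz1* (ENSMUSG00000068748) at chr6:22875502-23052916 on the plus strand and *Ackr3* (ENSMUSG00000044337) at chr1:90203980-90216751 on the plus strand. *Gja1* (ENSMUSG00000050953) is at chr10:56377330-56402513 on the plus strand and *Piezo1* (ENSMUSG00000014444) at chr8:122481698-122551329 on the minus strand. *Kcnk2* (ENSMUSG00000037624) is at chr1:189207930-189402273 on the minus strand and *Fbln7* (ENSMUSG00000027386) at chr2:128862981-128897034 on the plus strand. *Piezo1* overlaps the antisense gene *Ctu2*, which had at most 694 counts in a mouse, and *Kcnk2* overlaps an antisense transcript with at most 29 counts. The strand setting of the counting is not given in the sources used here, so reads in these overlaps cannot be assigned with certainty.

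The 250 bases before the start site are shown for the 3 members that varied most closely together over the mice, *Gja1*, *Pdpn* and *Ptprz1*. *Fbln7* is shown as well, as its values followed those 3 less closely over the pooled mice, though more closely with group means removed. The sequences are RefSeq promoters on GRCm38.p6, read 5′ to 3′ on the strand of the gene, with capitals marking matches on either strand to 6 short motifs. The motifs were the TATA box (TATAAA), the core of TEAD factors (GGAATG), the core of TCF and LEF factors (CTTTGA), AP-1 (TGANTCA), the CCAAT box (CCAAT) and the GC box (GGGCGG). All 7 members had an entry, with 10 start sites in all.
Gja1, chr10:56377050-56377299, plus strand: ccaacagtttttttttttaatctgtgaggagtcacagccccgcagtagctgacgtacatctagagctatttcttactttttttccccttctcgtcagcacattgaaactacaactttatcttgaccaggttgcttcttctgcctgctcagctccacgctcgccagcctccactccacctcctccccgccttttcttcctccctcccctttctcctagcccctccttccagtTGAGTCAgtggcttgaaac
Pdpn, chr4:143299565-143299814, minus strand: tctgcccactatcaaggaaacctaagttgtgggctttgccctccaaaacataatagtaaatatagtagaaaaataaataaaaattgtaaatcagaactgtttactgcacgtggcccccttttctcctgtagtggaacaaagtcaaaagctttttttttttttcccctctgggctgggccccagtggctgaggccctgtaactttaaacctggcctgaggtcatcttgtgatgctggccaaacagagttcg
Ptprz1, chr6:22875252-22875501, plus strand: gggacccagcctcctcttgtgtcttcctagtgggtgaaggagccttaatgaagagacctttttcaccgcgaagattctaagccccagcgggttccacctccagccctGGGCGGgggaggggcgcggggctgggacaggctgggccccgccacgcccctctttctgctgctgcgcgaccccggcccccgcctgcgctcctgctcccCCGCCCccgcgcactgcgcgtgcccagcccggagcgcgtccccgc
Fbln7, chr2:128863682-128863931, plus strand: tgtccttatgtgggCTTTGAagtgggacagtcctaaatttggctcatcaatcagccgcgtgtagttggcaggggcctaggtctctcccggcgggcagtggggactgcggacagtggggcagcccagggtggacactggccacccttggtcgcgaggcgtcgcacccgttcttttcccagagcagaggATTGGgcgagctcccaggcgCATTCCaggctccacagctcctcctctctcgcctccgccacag
The *Gja1* window held 1 AP-1 match, which began 19 bases before the start site, and 6.75% of the 32841 mouse promoters in the same table held this motif. The *Pdpn* window held none of the 6 motifs and had a GC content of 43.2%, against a median of 52.4% over all promoters. The *Ptprz1* window was richer in GC, at 71.6%, and held 2 GC boxes, a motif found in 32.7% of all promoters. The *Fbln7* window, which ends at the start of the shorter annotated transcript, held 1 TEAD core, 1 TCF and LEF core and 1 CCAAT box, found in 12.6%, 13.8% and 33.9% of all promoters. A match describes these letters only, and the 3 members that varied together shared no motif of the 6.

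The libraries held between 24366061 and 44418863 counts on genes. *Sost* was read at 10 to 43 counts in the Jrt;Sost-ko mice (0.33 to 1.28 CPM, the count scaled to library size) and at 26.81 to 72.27 CPM in the other 8 mice. The osteocyte markers *Dmp1* (111 to 537 CPM), *Phex* (59.4 to 174 CPM) and *Mepe* (55.2 to 157 CPM) were present in every mouse, while *Fgf23* reached at most 0.74 CPM. Other tissues were present too. Marrow transcripts were found in every mouse, with 4 erythroid genes summing to 11725 to 23516 CPM and 5 neutrophil genes to 10910 to 20491 CPM. The summed level of 12 skeletal muscle genes ranged from 28.0 to 28598 CPM, that of 4 cartilage genes from 47.2 to 3047 CPM, and that of 9 epidermal genes was 147 and 617 CPM in WT mice 3 and 4 against 6.01 to 16.4 CPM in the other 10. *Pdpn* also marks lymphatic endothelium, of whose 4 markers *Ccl21a* was at 0 in all libraries, *Prox1* was at 0.48 to 2.55 CPM, *Lyve1* at 4.14 to 18.2 CPM and *Flt4* at 24.2 to 39.9 CPM, beside 10.9 to 24.9 CPM of *Pdpn*. The part of lymphatic cells in the *Pdpn* values was not tested. In bulk RNA of this kind, fewer cells of a type and less RNA per cell cannot be told apart.

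Between genes, levels were compared as CPM per kilobase of the longest annotated coding transcript. *Gja1* stood highest, at 120 ± 29.8 CPM per kilobase (SD, n = 12), and its lowest mouse (68.4) was above the highest value of every other member. *Piezo1* followed at 16.0 ± 1.29, *Ackr3* at 11.5 ± 2.54, *Pdpn* at 9.33 ± 2.53, *Kcnk2* at 6.37 ± 1.35, *Ptprz1* at 4.11 ± 1.17 and *Fbln7* at 3.90 ± 1.98 CPM per kilobase. Below *Gja1*, the ranges of all neighbours in this order overlapped over the 12 mice. Over the length of all annotated exons, the level of *Gja1* was 37.2 ± 9.25 CPM per kilobase, still the highest, and *Ptprz1* (2.33 ± 0.66) stood behind *Fbln7* (3.90 ± 1.98).

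**Figure D1:**
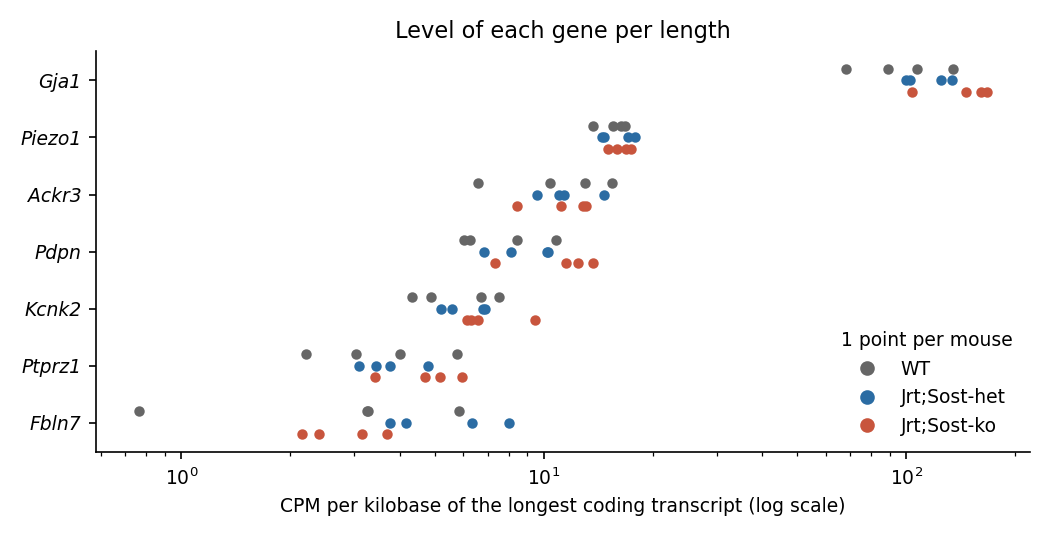
Level of each gene in CPM per kilobase of its longest coding transcript (log scale), with 1 point per mouse and colours for the groups. *Gja1* lies between 68.4 and 167 in all 12 mice, above *Piezo1* (13.7 to 17.8) and the other genes.

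The stretch-activated channels behaved differently from each other over the mice. *Piezo1* was the steadiest member, with 1.30-fold between the lowest and the highest of the 12 mice. Its levels were 133.97, 112.48, 127.39 and 137.50 CPM in WT mice 1 to 4, 146.41, 140.61, 118.72 and 120.65 CPM in Jrt;Sost-het mice, and 131.14, 142.73, 138.84 and 123.89 CPM in Jrt;Sost-ko mice. The groups overlapped throughout, with group means from 128 to 134 CPM. *Kcnk2* stood at 17.46, 15.44, 23.94 and 26.95 CPM in WT mice, 19.998, 18.61, 24.32 and 24.54 CPM in Jrt;Sost-het mice, and 22.50, 21.95, 33.88 and 23.51 CPM in Jrt;Sost-ko mice. The third Jrt;Sost-ko mouse was the highest of all 12, and the other 3 Jrt;Sost-ko mice lay within the range of the Jrt;Sost-het mice.

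*Gja1*, the gap junction gene, was read at 283.62, 217.69, 341.16 and 429.13 CPM in WT mice 1 to 4. Jrt;Sost-het mice had 425.82, 397.12, 326.06 and 318.38 CPM, and Jrt;Sost-ko mice had 466.49, 510.93, 532.83 and 330.26 CPM. Of the Jrt;Sost-ko mice, mice 1 to 3 were above every mouse of the other groups, and mouse 4 lay within the range of those groups. *Pdpn* showed a like arrangement, at 11.35, 10.93, 15.34 and 19.58 CPM in WT mice, 18.60, 18.71, 12.46 and 14.77 CPM in Jrt;Sost-het mice, and 20.89, 24.89, 22.65 and 13.34 CPM in Jrt;Sost-ko mice. Here too 3 Jrt;Sost-ko mice exceeded all 8 others, with mouse 4 the exception.

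The receptors overlapped fully between groups. *Ptprz1* stood at 24.40, 17.77, 32.39 and 46.61 CPM in WT mice, 38.79, 30.37, 24.88 and 27.85 CPM in Jrt;Sost-het mice, and 37.82, 47.94, 41.61 and 27.56 CPM in Jrt;Sost-ko mice. *Ackr3* stood at 31.88, 20.13, 39.77 and 47.25 CPM in WT mice, 33.80, 45.04, 34.82 and 29.33 CPM in Jrt;Sost-het mice, and 34.14, 39.38, 40.11 and 25.83 CPM in Jrt;Sost-ko mice. For each of these genes the WT mice spanned nearly the whole range of the data, with a coefficient of variation of 41.0% for *Ptprz1* and 33.4% for *Ackr3*, where counting error alone gives 2.94% and 2.74%.

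*Fbln7*, the matrix gene, varied most, by 10.5-fold over the 12 mice. WT mice had 10.55, 2.46, 10.53 and 18.80 CPM, Jrt;Sost-het mice 25.82, 20.47, 12.16 and 13.49 CPM, and Jrt;Sost-ko mice 10.14, 7.76, 11.90 and 6.95 CPM. Every Jrt;Sost-ko mouse was below every Jrt;Sost-het mouse, by a narrow gap between 11.90 and 12.16 CPM, and the WT mice spread over both groups.

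**Figure D2:**
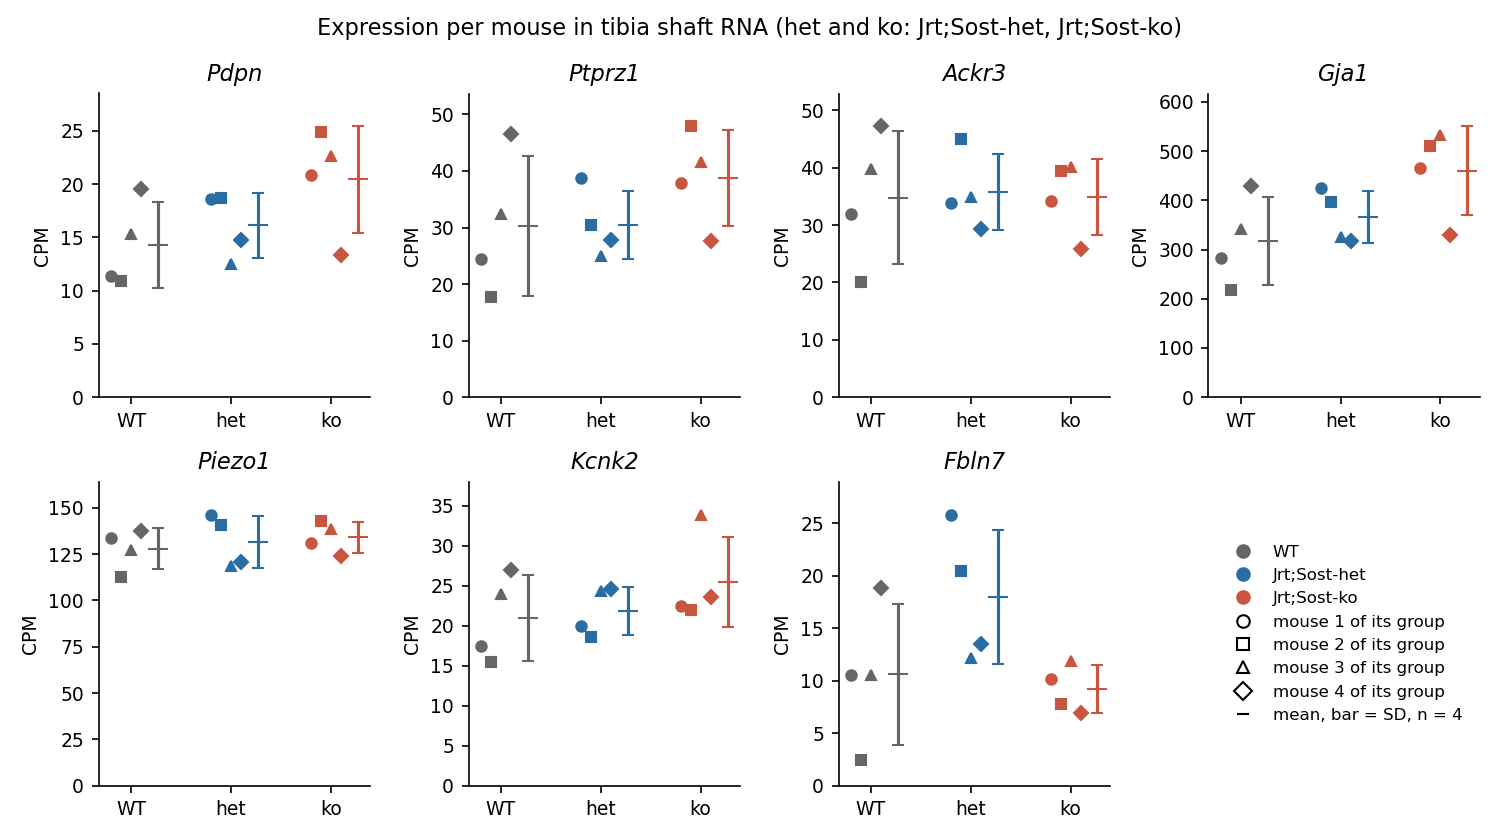
Level of each gene in CPM in the 12 mice, with 1 point per mouse, a marker shape for the number of the mouse within its group, and the mean and SD of 4 mice beside the points. *Fbln7* is below 12 CPM in all 4 Jrt;Sost-ko mice, and for *Gja1* and *Pdpn* 3 Jrt;Sost-ko mice lie above all others.

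Setting Jrt;Sost-ko beside Jrt;Sost-het mice asks what loss of the remaining *Sost* copy, with any alleles linked to it, changes in bone with the collagen variant. No member passed an adjusted p of 0.05 in edgeR's quasi-likelihood test, where 0.00597% of the 16739 genes tested did, *Sost* alone. *Fbln7* had the largest difference, with 9.19 ± 2.26 CPM in Jrt;Sost-ko and 18.0 ± 6.37 CPM in Jrt;Sost-het mice (SD, n = 4 each, edgeR unadjusted p = 0.00542). Its log2 fold change was -0.97 (SE 0.27), a ratio of 0.51 with a 95% confidence interval from 0.34 to 0.78. The adjusted p was 0.901 in edgeR and 0.115 in DESeq2, so the difference did not pass the correction over all genes, and its rank by p was 63 of 16739. With all 12 mice in 1 fit the SE was 0.46 and the edgeR unadjusted p was 0.0559. The exact two-sided permutation test over 8 mice gave p = 0.0286, the smallest that 70 arrangements allow. In edgeR it was the only member of the 7 with an unadjusted p under 0.05, and it was the only one with groups that did not overlap, where 5.02% and 3.2% of all genes tested met these conditions. DESeq2 called 0.114% of genes and no member, and gave *Gja1* an unadjusted p of 0.0396 as well. In limma-voom *Pdpn* (0.0477), *Ptprz1* (0.0271) and *Gja1* (0.0188) also had an unadjusted p under 0.05. Their adjusted p-values in limma-voom were 0.5616, 0.5135 and 0.5104. The 5.02% is the share in edgeR, and the shares of all genes in DESeq2 and limma-voom were not taken.

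Cartilage, tendon and periosteum transcripts were set beside *Fbln7* in the same mice. The 4 cartilage genes summed to 183 to 3047 CPM in Jrt;Sost-het and 92.2 to 695 CPM in Jrt;Sost-ko mice, and all 4 had a lower fitted value in Jrt;Sost-ko mice (median log2 fold change -1.81). None of the 4 passed the test or had an unadjusted p under 0.05 in edgeR. The highest cartilage level, 3047 CPM, was in Jrt;Sost-het mouse 1, which also had the highest *Fbln7*. Without that mouse the *Fbln7* log2 fold change was -0.75 (SE 0.24, unadjusted p = 0.0134 in edgeR). The 4 tendon and periosteum genes summed to 448 to 859 and 301 to 907 CPM in these groups, and the part of these tissues in the *Fbln7* values was not tested further.

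The other members had small differences in this comparison. *Gja1* was at 460 ± 90.9 CPM in Jrt;Sost-ko and 367 ± 52.9 CPM in Jrt;Sost-het mice, a log2 fold change of 0.33 (95% interval -0.04 to 0.69, edgeR unadjusted p = 0.0713). *Pdpn* was at 20.4 ± 5.01 against 16.1 ± 3.06 CPM, a log2 fold change of 0.34 (-0.12 to 0.81), and *Ptprz1* at 38.7 ± 8.54 against 30.5 ± 5.98 CPM, a log2 fold change of 0.35 (-0.07 to 0.76). *Kcnk2* had a log2 fold change of 0.22 (-0.14 to 0.58). For *Piezo1* it was 0.03, with an interval from -0.16 to 0.22, and for *Ackr3* it was -0.03, from -0.41 to 0.34. The members' median log2 fold change was 0.22, against 0.0013 over all genes tested, and 5 of 7 members were above 0, as were 50.4% of all genes. The median was 0.052 without Jrt;Sost-ko mouse 3 and 0.25 without Jrt;Sost-ko mouse 4. Without mouse 4, the lowest of its group for these genes, *Gja1* was at 0.45, *Pdpn* at 0.49 and *Ptprz1* at 0.47. The edgeR unadjusted p-values were 0.00474, 0.0116 and 0.0148, and the adjusted p-values 0.626 for *Gja1* and 0.742 for the others. The share of all genes under 0.05 in that fit was not taken. Without Jrt;Sost-ko mouse 1, 2 or 3, the same genes lay between 0.23 and 0.36, with edgeR unadjusted p-values from 0.1165 to 0.308. Without Jrt;Sost-het mouse 1, *Ptprz1* was at 0.48 and *Gja1* at 0.40 (edgeR unadjusted p = 0.0250 and 0.0437). All 12 muscle genes had a lower fitted value in Jrt;Sost-ko mice (median log2 fold change -1.01), none with an unadjusted p under 0.05 in edgeR, and they summed to 28.0 to 11628 CPM there and 2228 to 26639 CPM in Jrt;Sost-het mice. With muscle genes as a covariate the median of the members was 0.32, with *Gja1* at 0.42 and *Pdpn* at 0.45 (edgeR unadjusted p = 0.0228 and 0.0474, adjusted p = 0.891 for each). With osteoblast genes as a covariate, an alternative added after seeing the data, the median was -0.024, and *Gja1* was at 0.041 and *Ptprz1* at 0.016. The summed level of 9 osteoblast genes was 42729 to 70491 CPM in Jrt;Sost-ko and 35401 to 56893 CPM in Jrt;Sost-het mice, and 8 of the 9 had a fitted value above 0 (median log2 fold change 0.26). Of these 9, the osteocalcin genes *Bglap* and *Bglap2*, near-identical copies whose reads may be split between them, had an unadjusted p under 0.05 in edgeR and groups that did not overlap. Of the 7 osteocyte markers, 6 had a fitted value above 0, all but *Sost* itself, with a median log2 fold change of 0.44 over the 7. *Mepe*, *Irx5* and *Dkk1* had an unadjusted p under 0.05 in edgeR, at log2 fold changes of 0.70, 0.44 and 0.76, and *Dkk1* did not overlap between the groups. Over all genes tested, 5.02% had an unadjusted p under 0.05 in edgeR and 3.2% had groups that did not overlap. None of these marker genes other than *Sost* passed the adjusted threshold, and the part of the osteocyte markers in the values of the members was not tested.

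The comparison of Jrt;Sost-het with WT mice sets the collagen variant, together with 1 lost copy of *Sost*, against mice of the other colony. No member passed an adjusted or an unadjusted p of 0.05 in the main edgeR fit, where 0% and 2.14% of the 16775 genes tested did, and DESeq2 called no gene either. With osteoblast genes as a covariate, added after seeing the data, *Ptprz1* was at -0.23 (SE 0.058, edgeR unadjusted p = 0.0046). No member passed the adjusted threshold in that fit. In limma-voom *Fbln7* had an unadjusted p of 0.0455 (adjusted p = 0.869), with a log2 fold change of 0.99. The 2.14% is the share in the main edgeR fit, and that in limma-voom was not taken. All 7 members had a fitted value above 0, as had 51.3% of all genes, and the groups overlapped for each, where 1.54% of all genes had groups that did not. *Fbln7* again had the largest value, at 18.0 ± 6.37 CPM in Jrt;Sost-het and 10.6 ± 6.67 CPM in WT mice, a log2 fold change of 0.76 with an interval from -0.41 to 1.94. *Gja1* had a log2 fold change of 0.21 (-0.26 to 0.68) and *Pdpn* of 0.18 (-0.32 to 0.68). *Kcnk2*, *Piezo1*, *Ackr3* and *Ptprz1* lay between 0.01 and 0.06. Markers of several tissues had values of the same sign, and those of others did not. All 9 osteoblast genes (median log2 fold change 0.20), all 4 tendon and periosteum genes (0.47), all 4 cartilage genes (0.40) and 8 of 12 muscle genes (0.091) had a fitted value above 0, none of them with an unadjusted p under 0.05 in edgeR. Of the 7 osteocyte markers, *Sost* included, 3 were above 0 and 4 below (median -0.035). All 4 osteoclast genes (-0.037), 4 erythroid genes (-0.19) and 5 neutrophil genes (-0.087) were below 0. So were the 4 epidermal genes tested (-4.25), 3 of them with an unadjusted p under 0.05 in edgeR. The summed osteoblast level was 35401 to 56893 CPM in Jrt;Sost-het and 23099 to 58657 CPM in WT mice, and the part of these tissues in the values of the members was not tested. The members' values depended on which WT mice were included. Without WT mouse 2 *Gja1* was at 0.07, *Pdpn* at 0.07, *Fbln7* at 0.44, *Ptprz1* at -0.17, *Ackr3* at -0.14 and *Kcnk2* at -0.05, and the median of the members was -0.0062 where it was 0.06 with all mice. Without WT mice 3 and 4, whose libraries held epidermal transcripts, *Ptprz1* was at 0.55, *Ackr3* at 0.48, *Kcnk2* at 0.43, *Piezo1* at 0.11, *Gja1* at 0.57, *Pdpn* at 0.55 and *Fbln7* at 1.47, with adjusted p-values from 0.151 to 0.614 in edgeR. Leaving out WT mouse 4 alone put *Ptprz1* at 0.30 and *Fbln7* at 1.20. For *Piezo1*, the interval from -0.17 to 0.26 bounds the ratio between 0.89 and 1.20, whereas for *Ptprz1* (-0.64 to 0.66) the WT spread left a wide range open.

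Jrt;Sost-ko mice were also set against WT mice, using the same WT and Jrt;Sost-ko libraries as the comparisons above, so these values are not independent of them. In edgeR 0.00583% of the 17155 genes tested passed, again *Sost* alone, and no member did. *Gja1* was at 460 ± 90.9 CPM in Jrt;Sost-ko and 318 ± 89.7 CPM in WT mice, a log2 fold change of 0.54 (0.02 to 1.06). Its unadjusted p in edgeR was 0.0439 and its adjusted p 0.9996, and the exact two-sided permutation test gave p = 0.0857. It was the only member with an unadjusted p under 0.05 in edgeR, as had 3.89% of all genes. DESeq2 called no member and 0.0886% of genes, and gave *Pdpn* an unadjusted p of 0.0412 as well. In limma-voom *Pdpn* (0.0108) and *Ptprz1* (0.0494) joined *Gja1* with an unadjusted p under 0.05. The 3.89% is the share in edgeR, and the shares of all genes in DESeq2 and limma-voom were not taken. The groups overlapped for all 7 members, where 2.4% of all genes had groups that did not, and 6 members had a fitted value above 0, as had 49.1% of all genes. *Pdpn* was at 20.4 ± 5.01 against 14.3 ± 4.04 CPM, a log2 fold change of 0.52 (-0.04 to 1.08). *Ptprz1* had a log2 fold change of 0.36 (-0.31 to 1.03), *Kcnk2* of 0.29 (-0.20 to 0.77), *Piezo1* of 0.08 (-0.11 to 0.26) and *Ackr3* of 0.01 (-0.57 to 0.59). *Fbln7* was at 9.19 ± 2.26 and 10.6 ± 6.67 CPM, a log2 fold change of -0.20 (-1.34 to 0.93). The osteoblast genes summed to 23099 to 58657 CPM in WT mice, with all 9 having a higher fitted value in Jrt;Sost-ko mice (median log2 fold change 0.45). Fitted values were also higher for all 4 tendon and periosteum genes (0.47) and 5 of 7 osteocyte markers (0.43). They were lower for all 12 muscle (-0.94), 4 cartilage (-1.49), 5 neutrophil (-0.18) and 4 osteoclast genes (-0.16). The 4 epidermal genes tested were lower too (-4.70), each with an unadjusted p under 0.05 in edgeR. The part of these tissues in the values of the members was not tested further. Without WT mice 3 and 4, *Gja1*, *Pdpn* and *Ptprz1* were each at 0.88 (edgeR adjusted p from 0.304 to 0.320). Without WT mouse 2 they were at 0.40, 0.41 and 0.17. With the mean of the 9 osteoblast genes as a covariate the *Gja1* value was 0.10 (edgeR adjusted p = 0.549).

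**Figure D3:**
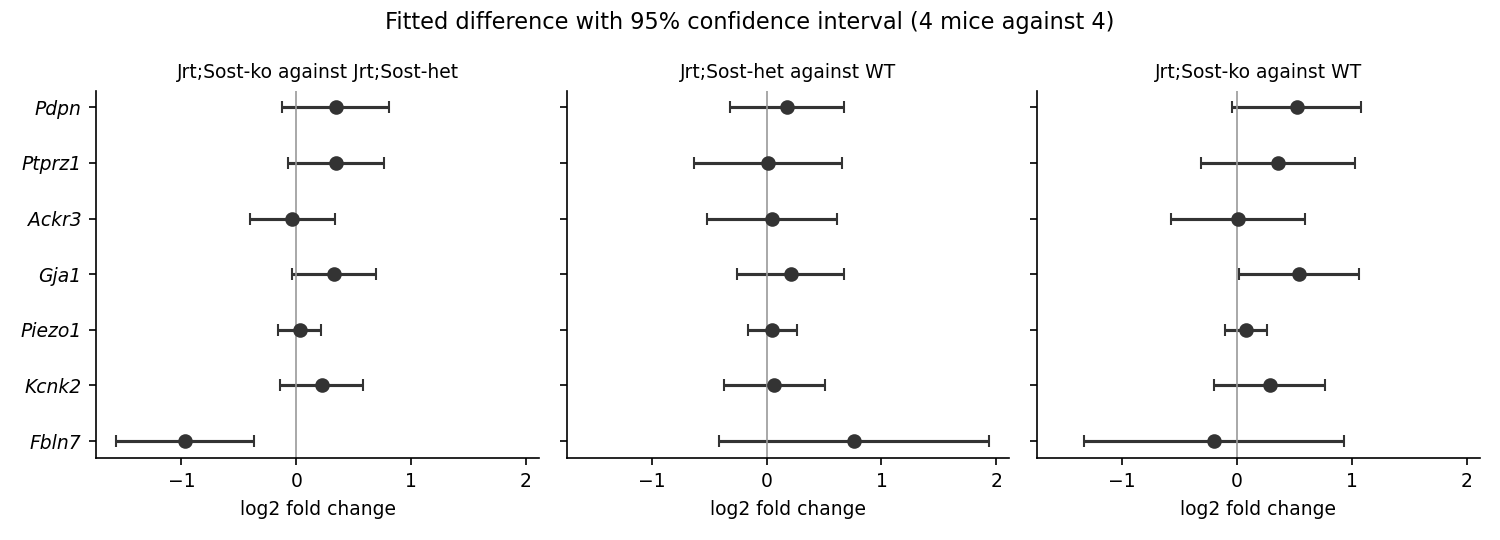
Log2 fold change of each gene from edgeR with its 95% confidence interval, in the 3 comparisons of 4 mice with 4. Of the 21 intervals, those of *Fbln7* in Jrt;Sost-ko mice relative to Jrt;Sost-het mice (-1.57 to -0.37) and of *Gja1* between Jrt;Sost-ko and WT mice (0.02 to 1.06) leave out 0.

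Within the WT group the members ordered the mice at the extremes alike, and less so in the other groups. WT mouse 2 was the lowest WT mouse and WT mouse 4 the highest for all 7 members. Jrt;Sost-ko mouse 4 was the lowest of its group for 6 members, *Kcnk2* being the exception, and Jrt;Sost-het mouse 1 was the highest of its group for 4. Among the Jrt;Sost-het mice 3 different mice were the lowest for some member, and *Kcnk2* ran opposite to *Pdpn*, *Gja1*, *Piezo1* and *Fbln7*, with r from -0.929 to -0.874 over 4 mice as a description. The same libraries differed in tissue content. WT mouse 2 had the lowest summed osteoblast level of the 12 (23099 CPM), the lowest tendon and periosteum level (267 CPM) and the lowest cartilage level (47.2 CPM), and its muscle level was 211 CPM. WT mouse 4 had 58657 CPM of osteoblast, 28598 CPM of muscle and 617 CPM of epidermal transcripts. The neutrophil level was highest in WT mouse 2 (20491 CPM) and lowest in WT mouse 4 (10910 CPM) of the 12 mice. Jrt;Sost-ko mouse 4 had the lowest muscle level, 28.0 CPM. Within its group it also had the lowest osteoblast (42729 CPM), osteocyte (487 CPM) and tendon and periosteum (301 CPM) levels. The part of tissue content in the order of the mice was not tested beyond the relations given next.

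**Figure D4:**
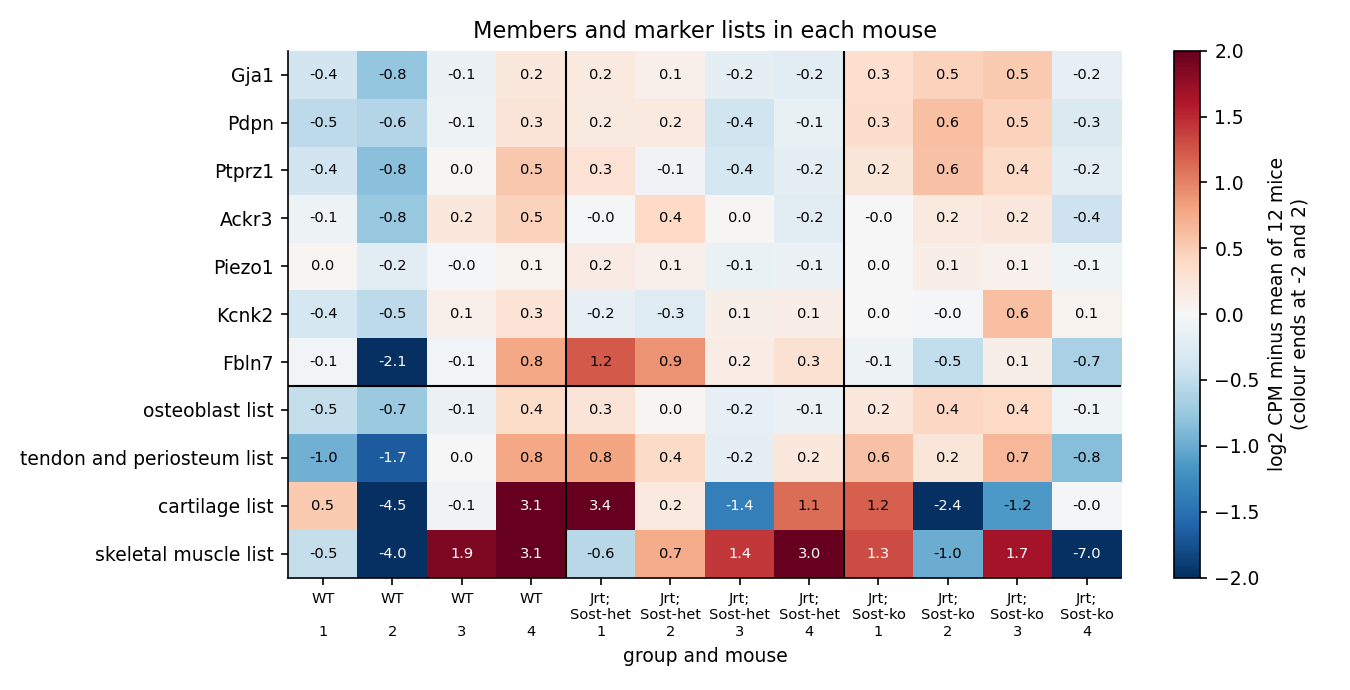
Log2 CPM of each gene, and mean log2 CPM of 4 marker lists, in each mouse (columns) as the difference from the mean of the 12 mice, with the value written in each cell and colours ending at -2 and 2. WT mouse 2 is below the mean in every row and WT mouse 4 is above it, while *Piezo1* stays close to its mean in all 12.

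Over the 12 mice, *Pdpn* and *Gja1* had the closest relation of the 21 pairs of members. Pearson's r was 0.954 and Spearman's rho 0.965 on log2 CPM, each with a permutation p of 1e-05, the smallest that 100000 permutations can give (adjusted p = 0.00035 over 35 relations). The r was 0.956 once the 2 mice with the most extreme *Pdpn* values were left out and 0.936 with group means removed. *Ptprz1* followed both, with r = 0.938 and rho = 0.923 to *Gja1* and r = 0.924 and rho = 0.937 to *Pdpn*, and permutation p-values from 2e-05 to 7e-05. All 21 pairs had a positive r, and 12 had an adjusted permutation p under 0.05 for r, of which the 3 pairs among *Pdpn*, *Gja1* and *Ptprz1* also had one for rho. *Kcnk2* took part in none of the 12, with r from 0.193 (*Piezo1*) to 0.625 (*Gja1*). *Fbln7* did so with *Ackr3* (r = 0.739, rho = 0.483, r = 0.336 without the 2 farthest mice) and *Piezo1* (r = 0.668, rho = 0.462, 0.488 without them), relations that rested in part on those mice. With group means removed, the r of *Fbln7* was 0.827 with *Ackr3* and 0.805 with *Piezo1*. In that form it was 0.852 with *Gja1*, 0.834 with *Ptprz1*, 0.674 with *Pdpn* and 0.521 with *Kcnk2*, against 0.550, 0.558, 0.443 and 0.355 over the pooled mice. Within the groups of 4, the r of *Pdpn* with *Gja1* was 0.976 for the Jrt;Sost-ko mice, 0.889 for the Jrt;Sost-het mice and 0.946 for WT, a description over 4 mice each.

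Against tissue markers the members again split. The mean log2 CPM of the 9 osteoblast genes, a relation added after seeing the data, had r = 0.972 and rho = 0.937 with *Gja1*, r = 0.965 and rho = 0.944 with *Ptprz1*, and r = 0.935 and rho = 0.937 with *Pdpn*. Their adjusted permutation p was 4.7e-05 for r over the 14 added relations, and r stayed at 0.942, 0.932 and 0.931 without the 2 farthest mice. *Piezo1* had r = 0.755 and rho = 0.769, *Ackr3* r = 0.732 and rho = 0.573, *Kcnk2* r = 0.664 and rho = 0.392, and *Fbln7* r = 0.603 and rho = 0.259. With group means removed, r was 0.765 for *Piezo1*, 0.848 for *Ackr3*, 0.576 for *Kcnk2* and 0.835 for *Fbln7*. With 6 osteocyte genes (*Sost* left out), r was 0.900 for *Ptprz1*, 0.876 for *Pdpn*, 0.863 for *Gja1*, 0.718 for *Piezo1*, 0.577 for *Ackr3*, 0.363 for *Kcnk2* and 0.348 for *Fbln7*. With group means removed these were 0.892, 0.843, 0.826, 0.763, 0.725, 0.151 and 0.730 in the same order. With *Sost* among the osteocyte genes, as planned, none of the 7 relations had an adjusted permutation p under 0.05. Of the relations with muscle genes, *Ackr3* alone passed (r = 0.681, rho = 0.573, permutation p = 0.018, adjusted p = 0.0485 for r and 0.160 for rho). It rested on the extreme mice, with r = 0.155 without the 2 farthest, and within groups r was 0.998 in WT, 0.864 in Jrt;Sost-ko and -0.465 in Jrt;Sost-het mice.

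**Figure D5:**
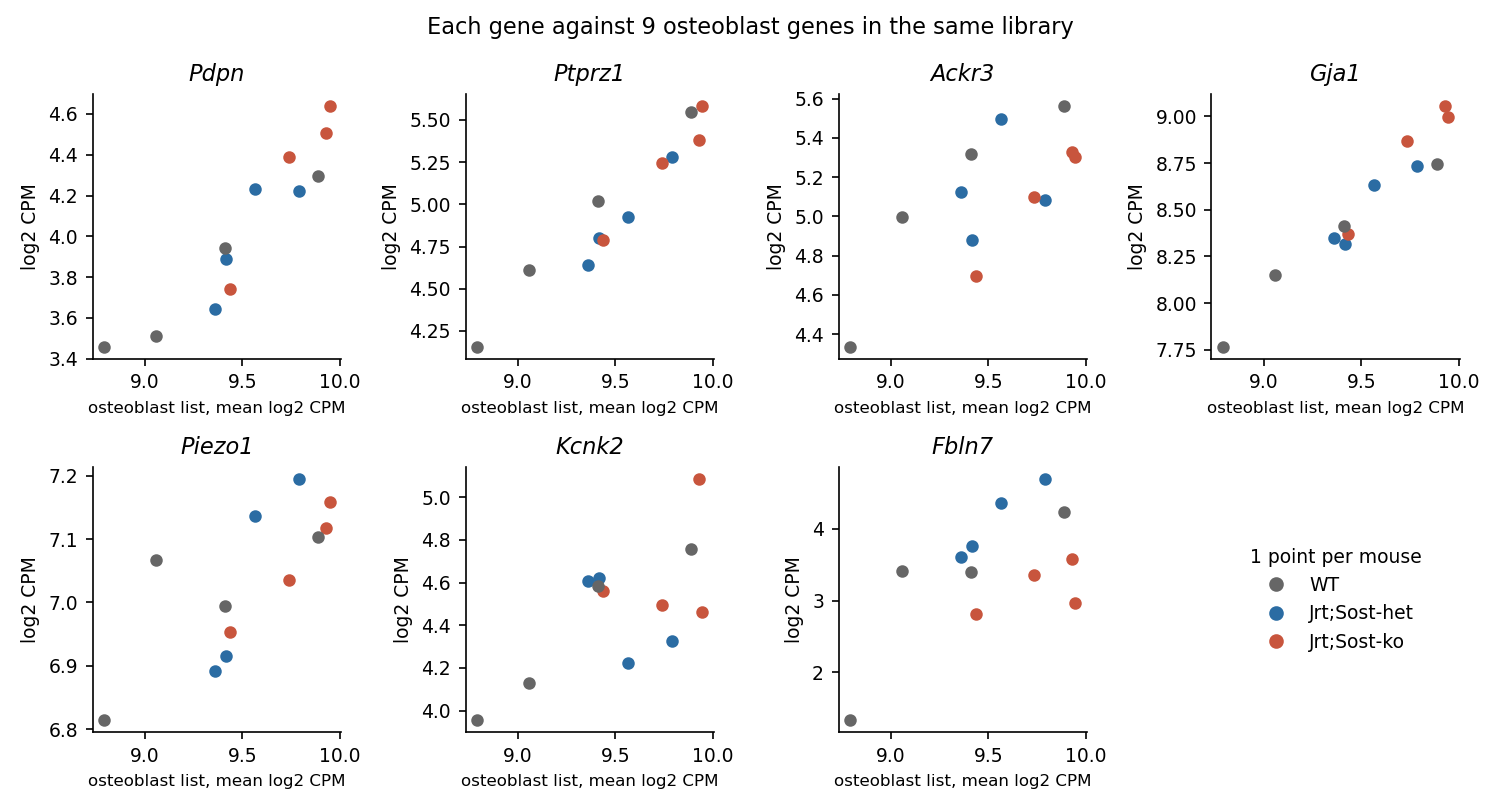
Log2 CPM of each gene against the mean log2 CPM of 9 osteoblast genes, with 1 point per mouse. *Gja1*, *Ptprz1* and *Pdpn* follow the list closely (r = 0.972, 0.965 and 0.935), while *Fbln7* in Jrt;Sost-ko mice lies below the other groups at a like osteoblast level.

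The genes most like each member over the 12 mice, among 14655 expressed genes, are given as a description with no test. *Gja1* was closest to the collagen genes *Col8a1* (r = 0.984) and *Col1a2* (r = 0.983) and to the fibrillin gene *Fbn2* (r = 0.982). *Pdpn* was closest to *Creb3l1* (r = 0.967), which encodes a transcription factor of collagen-secreting osteoblasts, *Adgrd1* (r = 0.962) and *Wisp1* (r = 0.958). *Ptprz1* was closest to *Erc1* (r = 0.983), *Hdlbp* and the lysophosphatidic acid receptor gene *Lpar3* (r = 0.981 each). *Ackr3* was closest to another receptor gene of that family, *Lpar1* (r = 0.964), then *Dact1* (r = 0.950) and *Ctsf* (r = 0.948). *Fbln7* was closest to *B9d1* (r = 0.947), the superoxide dismutase gene *Sod3* (r = 0.936) and *Comp* (r = 0.925), which encodes a matrix protein of cartilage and tendon. *Piezo1* was closest to *Uprt* (r = 0.937), *Galnt7* (r = 0.915) and *Gm37233* (r = 0.912), and *Kcnk2* to *Kank4* (r = 0.893), *Habp4* (r = 0.882) and *Map2k6* (r = 0.880). All of these share the libraries and their tissue content with the members.

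Around the members, 88 genes in 10 lists cover their partners, ligands and relatives, and 80, 80 and 81 of them could be tested in the comparisons in the order given above. None passed an adjusted p of 0.05 in edgeR. An unadjusted p under 0.05 was met by 2 higher and 2 lower genes in Jrt;Sost-ko mice relative to Jrt;Sost-het mice, by none between Jrt;Sost-het and WT mice, and by 4 higher and 2 lower genes between Jrt;Sost-ko and WT mice. The shares of all genes were 5.02%, 2.14% and 3.89%. In Jrt;Sost-ko mice relative to Jrt;Sost-het mice, 2 of the 80 had groups that did not overlap, both higher. Between Jrt;Sost-het and WT mice it was 1 lower gene of 80, and between Jrt;Sost-ko and WT mice 1 higher and 1 lower gene of 81. Over all genes these shares were 3.2%, 1.54% and 2.4%. Of the 6 relatives of *Kcnk2*, *Kcnk1* stood at 19.6 ± 3.501 CPM in Jrt;Sost-ko and 11.5 ± 3.17 CPM in Jrt;Sost-het mice, with no overlap between the groups. Its log2 fold change was 0.77 (SE 0.21, edgeR unadjusted p = 0.00505, adjusted p = 0.901), and against WT mice it was 0.85 (unadjusted p = 0.0233). *Kcnk3*, named here after its values were seen because it was 1 of the 2 lower genes, was at 1.59 ± 0.49 CPM in Jrt;Sost-ko and 2.32 ± 0.17 CPM in Jrt;Sost-het mice (log2 fold change -0.54, edgeR unadjusted p = 0.0403). *Kcnk6* had a log2 fold change of 0.24 against WT mice (unadjusted p = 0.0245 in edgeR).

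Among 12 genes of the YAP and TAZ pathway, which relays tension to the nucleus, the target gene *Ctgf* was the only one with an unadjusted p under 0.05 in Jrt;Sost-ko mice relative to Jrt;Sost-het mice, at 65.7 ± 23.7 CPM in Jrt;Sost-ko and 97.6 ± 15.9 CPM in Jrt;Sost-het mice (log2 fold change -0.57, edgeR unadjusted p = 0.0437), and *Lats2* had -0.03. In that comparison 6 of the 12 were above 0 and 6 below 0, with a median of -0.0070. Against WT mice, 10 of the 12 were above 0 in Jrt;Sost-het mice and 7 in Jrt;Sost-ko mice. Among 8 immediate early genes, which loading induces in bone cells, 4 were above 0 and 4 below 0 in Jrt;Sost-ko mice relative to Jrt;Sost-het mice (median log2 fold change -0.067). Against WT mice, 5 of the 8 were above 0 in Jrt;Sost-ko and 7 in Jrt;Sost-het mice. In Jrt;Sost-ko mice *Nr4a2* had log2 fold changes of 0.74 against Jrt;Sost-het and 0.97 against WT mice, with unadjusted p-values of 0.0224 and 0.0188 in edgeR. The prostaglandin synthase gene *Ptgs2* had 0.64 and 1.59, with unadjusted p-values of 0.265 and 0.0191. It was low, at 3.58 ± 2.03 CPM in Jrt;Sost-ko and 1.20 ± 0.83 CPM in WT mice. Among gap junction and hemichannel genes, *P2rx7* had a log2 fold change of -0.20 in Jrt;Sost-ko mice against WT mice.

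Of the 13 stretch-sensitive channels tested beside *Piezo1* and *Kcnk2*, 5 had values above 0 and 8 below 0 in Jrt;Sost-ko mice relative to Jrt;Sost-het mice, where 50.4% of all genes were above 0. Against WT mice, 9 were above and 4 below 0 in Jrt;Sost-het mice, and 11 were above and 2 below 0 in Jrt;Sost-ko mice, where 51.3% and 49.1% of all genes were above 0. *Tmem63a* stood at 65.4 ± 1.41 CPM in Jrt;Sost-ko and 71.6 ± 3.58 CPM in WT mice without overlap (log2 fold change -0.12, edgeR unadjusted p = 0.0416), and *Lrrc8a* had a log2 fold change of 0.14 in the same comparison. Radixin (*Rdx*), which ties podoplanin to actin, was at 214 ± 4.04 CPM in Jrt;Sost-ko and 199 ± 3.46 CPM in Jrt;Sost-het mice, with no overlap and a log2 fold change of 0.11 (edgeR unadjusted p = 0.0560), and *Lgals8* had -0.01. WT mice had 211 ± 8.00 CPM of *Rdx*, and every Jrt;Sost-het mouse was below every WT mouse (log2 fold change -0.08, edgeR unadjusted p = 0.178). The *Rdx* log2 fold change of Jrt;Sost-ko against WT mice was 0.02. Of the ligands and receptors, *Cxcr4* was at 178 ± 23.3, 177 ± 12.6 and 196 ± 33.6 CPM in the knockout, heterozygous and WT mice and *Adm* at 2.62 ± 0.55, 2.18 ± 0.49 and 2.27 ± 0.92 CPM. The ligands of *Ptprz1*, midkine (*Mdk*) and pleiotrophin (*Ptn*), had no unadjusted p under 0.05 in any comparison. The same held for the integrin and focal adhesion genes, led by *Itga5* and *Src*, and for the other fibulins, led by *Efemp1* and *Fbln5*.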

How the data were processed

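RNA was measured in the flushed tibia shafts of 12 mice. Per the methods and the submitters' processing notes, the authors used bcl2fastq 2.20, mapped the pairs with STAR (GRCm38), and used Cufflinks, Cuffdiff and DESeq. The deposited matrix holds raw counts per gene, without normalization, and all 12 count columns were mapped by title. The counting tool, its strand setting and the annotation release are not given in the sources used here. The authors' own comparison tables (fold changes and p-values) were not used.

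Comparisons were fitted over the 8 mice concerned with edgeR 4.0.16 in R 4.3.3 (filterByExpr, TMM, quasi-likelihood test, Benjamini-Hochberg adjustment over all genes tested, threshold 0.05), after a test on simulated data. CPM used TMM over 12 libraries, and log2 CPM a prior count of 2. DESeq2 1.42.0 (adjusted p-values left missing where it gives none) and limma 3.58.1 (voom) served as alternatives. Exact permutation tests covered 70 arrangements, and correlations used 100000 permutations in Python 3.11.15 with numpy 2.4.6. Of 47069 gene identifiers, 98.8% were found in GENCODE M21. Libraries of the same group differed far beyond counting error (chi-square per degree of freedom 25.8 to 250 over 18 pairs), and each library is labelled as a separate mouse.

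The members and all gene lists were chosen with earlier results of these data known. Named genes were all members, the 2 genes of each list with the smallest p in any comparison, and the 3 genes with the highest r to each member. 1 gene that this rule names is not reported here. Mice are numbered in accession order within groups. Other alternatives were other scalings and filters, 1 fit over 12 mice, muscle genes as a covariate, leaving out each mouse, and leaving out WT mice 3 and 4. Osteoblast genes as a covariate and the 14 relations with bone lists were added after seeing the data.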

Additional observations from a re-analysis of the deposited data

Results flagged for a closer look

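*Kcnk2* in Jrt;Sost-ko mouse 3 lay far above the other 3 mice of its group, with 33.88 CPM against 22.50, 21.95 and 23.51 CPM. The gap to the nearest mouse took up 0.869 of the range of the group, above the 95% critical value of Dixon's test for 4 mice. In all, 21 groups of 4 mice were tested, of which about 1.05 would be expected to exceed this value by chance, so the number found is what chance gives. Without this mouse the *Kcnk2* log2 fold change in Jrt;Sost-ko mice relative to Jrt;Sost-het mice was 0.05, against 0.22 with it.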

How the results depend on the processing

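No paired analysis was possible because the labels carry no replicate numbers shared between groups. Over 392 values of the 7 members under the alternatives, none reached an adjusted p of 0.05, 351 kept their sign and 41 changed it, and the smallest adjusted p was 0.115 (*Fbln7* in Jrt;Sost-ko mice relative to Jrt;Sost-het mice in DESeq2). For *Fbln7* in that comparison the log2 fold change lay between -1.29 and -0.75 in all 18 alternatives, and its unadjusted p was under 0.05 in each except 1 fit over all 12 mice (SE 0.46, edgeR unadjusted p = 0.0559). *Gja1* had values above 0 in every alternative of the 3 comparisons.

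The number of genes called in Jrt;Sost-ko mice relative to Jrt;Sost-het mice was 1, and became 15 with DESeq2, 0 with limma-voom and 0 with muscle or osteoblast genes as a covariate (0 to 3 when 1 mouse was left out). Between Jrt;Sost-ko and WT mice it was 1, and became 14 with DESeq2, 2 with limma-voom, 2 with no filter on low counts and 15 with osteoblast genes as a covariate (0 to 2 when 1 mouse was left out). Without WT mice 3 and 4, whose libraries held epidermal transcripts, the median log2 fold change of the members moved from 0.06 to 0.55 for Jrt;Sost-het and from 0.29 to 0.64 for Jrt;Sost-ko against WT mice, and *Fbln7* in the latter from -0.20 to 0.50. With osteoblast genes as a covariate that median was -0.045 for Jrt;Sost-ko against WT mice.

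Several values changed sign, among them some that were not near 0. With muscle genes as a covariate, *Ackr3* was 0.061 in Jrt;Sost-ko mice relative to Jrt;Sost-het mice, *Ptprz1* -0.017, *Ackr3* -0.0077 and *Kcnk2* -0.024 between Jrt;Sost-het and WT mice, and *Fbln7* 0.20 between Jrt;Sost-ko and WT mice. With osteoblast genes as a covariate, the median of the members moved from 0.22 to -0.024, *Pdpn* from 0.34 to -0.024 and *Piezo1* from 0.03 to -0.090 in Jrt;Sost-ko mice relative to Jrt;Sost-het mice. In that fit *Pdpn* was -0.012, *Ptprz1* -0.23, *Ackr3* -0.13, *Piezo1* -0.027 and *Kcnk2* -0.032 between Jrt;Sost-het and WT mice, and *Ptprz1* -0.19 (from 0.36), *Ackr3* -0.47, *Piezo1* -0.045 and *Kcnk2* -0.029 (from 0.29) between Jrt;Sost-ko and WT mice. *Ackr3* in the last comparison was -0.0027 with upper-quartile scaling, -0.0063 with TMM without muscle, blood and epidermal genes and -0.0028 with no filter, and *Fbln7* was 0.025 with limma-voom. Leaving out 1 mouse gave, in Jrt;Sost-ko mice relative to Jrt;Sost-het mice, -0.11 to 0.094 for *Ackr3* and -0.025 to 0.079 for *Piezo1*. Between Jrt;Sost-het and WT mice it gave -0.14 to 0.22 for *Ackr3*, -0.051 to 0.20 for *Kcnk2*, -0.0065 to 0.097 for *Piezo1* and -0.17 to 0.30 for *Ptprz1*, and between Jrt;Sost-ko and WT mice -0.18 to 0.19 for *Ackr3* and -0.53 to 0.23 for *Fbln7*. The cause of these changes was not tested.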
